A study of Mus musculus with 24 samples.

Results

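Cish, Socs1, Socs2, Socs4, Socs5, Socs6 and Socs7, the genes of the suppressor of cytokine signalling (SOCS) family other than Socs3, and the kinase gene Pim1 were followed across hematopoietic stem cells (HSCs) and multipotent progenitors 3 (MPP3) of mouse bone marrow. They were chosen by symbol and are 8 of the 55376 genes counted, and all 8 passed the filter on low counts and the limit on average expression in every comparison. The study set mice homozygous for TTPΔARE, a germline deletion of an AU-rich element from the 3′ untranslated region of Zfp36 that acts in every tissue, against wild-type (WT) littermates. Zfp36 encodes tristetraprolin (TTP). Bulk mRNA-seq libraries came from untreated male mice, either young (Y) or middle-aged (M), and formed 6 groups. HSCs, gated as Lineage- Sca1+ cKit+ CD34- Flk2- CD150+, gave 4 Y-WT, 4 Y-TTPΔARE, 5 M-WT and 3 M-TTPΔARE libraries. MPP3 cells were taken from young mice only and gave 4 Y-WT and 4 Y-TTPΔARE libraries. The mouse strain and the separate origin of each library were not given in the sources used here, so p-values measure the spread between these libraries, which may be technical. In bulk RNA, fewer cells of a type and less RNA per cell cannot be told apart.

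Many blood cytokine receptors lack a kinase domain and signal through bound Janus kinases (JAKs), which phosphorylate STAT5, and STAT5 then enters the nucleus and switches on genes. Among these genes are Cish and several SOCS genes, whose proteins return to the receptor or the JAK and shut the signal down, often by recruiting a ubiquitin ligase through the SOCS box. Pim1, another known target of STAT5, encodes a serine/threonine kinase that favours survival and growth. TTP binds AU-rich elements of mRNAs and speeds their decay, and the mRNAs of several cytokine response genes carry such elements.

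To show where the members could meet TTP or STAT5, their 3′ untranslated regions were searched on the transcribed strand for TATTTAT, a core of the TTP binding element, with overlapping copies counted. The annotation was GENCODE M21 on GRCm38. The motif was present in 5 of the 8 members (Cish, Pim1, Socs2, Socs4 and Socs5) and in 27.6% of 21020 annotated genes. Cish held 3 copies and Pim1 held 4, in each case in 1 continuous run, and Socs2, Socs4 and Socs5 held 1 each. The members' regions run from 1163 to 5184 bases, against a median of 961 over all genes, so the share was also taken among genes whose region was within 20% of the same length. It was 43.7% for Cish, 32.2% for Pim1, 40.6% for Socs1, 28.8% for Socs2, 48.5% for Socs5, 59.8% for Socs6 and 68% for both Socs4 and Socs7. The mean of these shares is 48.7%, and 5 of 8 members is near it. The stretches below are shown because they separate the members with a run of the motif from those with 1 copy. Capitals mark the motif, and the positions are chr9:107301379-107301403 (plus strand) for Cish, chr17:29495691-29495719 (plus) for Pim1, chr10:95412068-95412084 (minus) for Socs2, chr14:47293533-47293549 (plus) for Socs4 and chr17:87136097-87136113 (plus) for Socs5.
Cish: tacagTATTTATTTATTTATtctcc
Pim1: taatgTATTTATTTATTTATTTATttggt
Socs2: gcttgTATTTATccctc
Socs4: ctaagTATTTATatgaa
Socs5: gacagTATTTATctctt
A match describes letters and not a bound site, and the absence of TATTTAT from Socs1, Socs6 and Socs7 says only that these letters are not in the annotated region.

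Promoters of 4 members (Cish, Pim1, Socs1 and Socs4) matched the RefSeq table (GRCm38.p6, from 250 bases before to 50 after the start). They were searched for TTCNNNGAA, the palindrome that STAT5 recognises, which reads the same on both strands. Cish held 2 copies and the promoters of the other 3 held 0, while 8.3% of 32851 promoters of this length held it. The first copy began at the start base itself and the second began 11 bases downstream, and both are shown because Cish was the member with the motif. They lie at chr9:107296651-107296675 and chr9:107296662-107296686 on the plus strand, with the motif in capitals.
Cish site 1: gcccagttTTCCTGGAAagttcttg
Cish site 2: ctggaaagTTCTTGGAAatctgtca
With a spacer of 4 bases in place of 3, none of the 4 members had a match, against 6.95% of all promoters.

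Libraries held between 24261371 and 39934554 counts, and no member fell under 137 counts in any library. Levels are given as CPM, that is counts relative to the size of the library, scaled over all 24 libraries with TMM factors, which lay between 0.731 and 1.148. The lowest factor belonged to Y-TTPΔARE MPP3 replicate 4, and the study used 3 of the 4 libraries of this group without saying which. Olfactory and vomeronasal receptor genes (1971 summed) stood at 61.4 CPM in Y-WT HSC replicate 1 and at 596 to 979 CPM in replicates 2 to 4. Genes detected were 27729 and 40051 to 41676 in the same libraries. This receptor sum was 75.0 to 404 CPM in Y-TTPΔARE, 39.2 to 209 in M-WT and 88.3 to 404 in M-TTPΔARE HSCs. In MPP3 cells it was 18.8 to 338 CPM in Y-WT and 52.7 to 541 in Y-TTPΔARE. Zfp36 lay at 32.4 to 69.2 CPM in Y-WT and 85.3 to 105.3 in Y-TTPΔARE HSCs, at 41.6 to 60.4 in M-WT and 94.9 to 105.6 in M-TTPΔARE HSCs, and at 20.5 to 38.4 in Y-WT and 81.6 to 124.4 in Y-TTPΔARE MPP3 cells, so the genotype labels held in every library. The cell type labels held too, since 7 of 10 HSC markers were called lower and 6 of 8 granulocyte-monocyte progenitor markers higher in Y-WT MPP3 cells than in Y-WT HSCs. A called gene is one with an adjusted p under 0.05 in edgeR's quasi-likelihood test whose fold change exceeded 1.2 and whose average logCPM exceeded 1.5.

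Levels were also compared as RPKM, that is CPM divided by the kilobases of all annotated exons of the gene, not of 1 transcript. Pim1 had the highest mean RPKM in Y-WT HSCs (18.0), followed by Cish at 12.8 and Socs5 at 11.8. This order depended on the exon bases, which were 3362 for Pim1, 6419 for Cish, 6416 for Socs5 and 9531 for Socs2. In mean CPM Cish (81.9) and Socs5 (75.7) lay over Pim1 (60.4) in the same libraries. Socs1 had a mean RPKM of 6.57, Socs2 of 5.56 and Socs6 of 4.89, and Socs4 (1.97) and Socs7 (1.24) were the least abundant. In Y-WT MPP3 cells Pim1 (mean RPKM 12.8) and Socs5 (12.5) led, Cish stood at 3.95 and Socs2 was the lowest at 0.726. The members fell into a group whose levels varied widely over the 6 groups and one that was nearly level. The highest group mean in CPM was 7.66 times the lowest for Socs2, 5.49 times for Cish, 2.13 times for Socs1 and 2.07 times for Pim1. This ratio was 1.64 for Socs4, 1.53 for Socs7, 1.19 for Socs5 and 1.14 for Socs6.

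**Figure D1:**
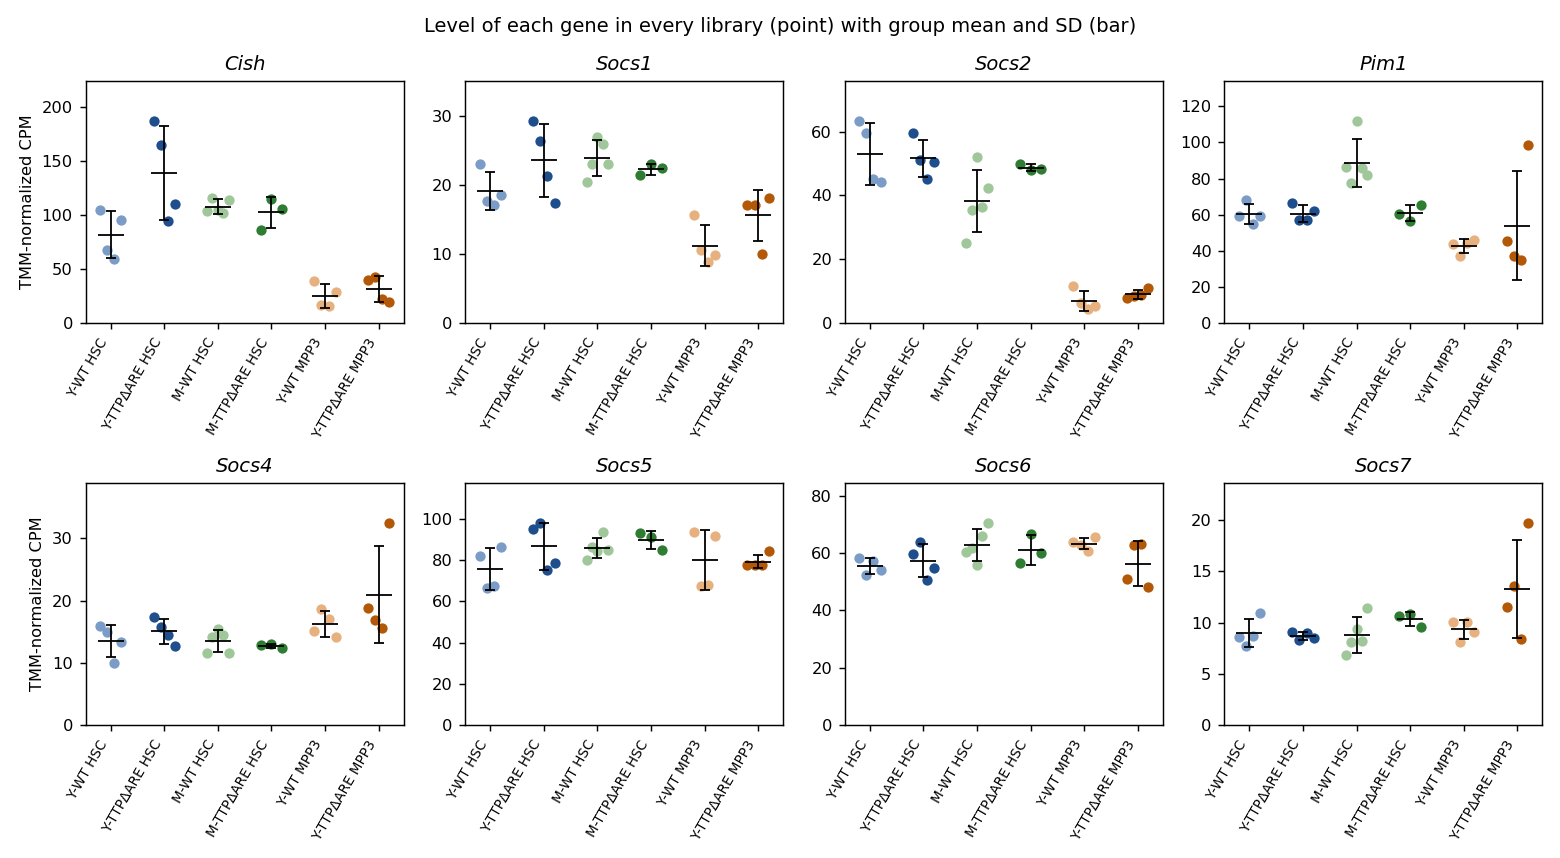
TMM-normalized CPM (vertical axis) of the 8 genes in every library, by group (horizontal axis). Points are libraries and bars give the group mean and SD. Cish and Socs2 lie lower in both MPP3 groups than in any HSC group, Pim1 has its highest mean in M-WT HSCs, and Socs5 and Socs6 vary little (1.19 and 1.14 times between the highest and lowest group mean).

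The largest differences among the members lay between cell types, with Socs2 and Cish lower in MPP3 cells than in HSCs of both genotypes. In WT cells, Socs2, Cish, Socs1 and Pim1 were called lower in MPP3 cells than in HSCs and 0 members higher, and 4 members were not called. Over all 22816 genes tested 22.2% were called in either direction and 7.69% lower. Among the 13433 genes over the logCPM limit that a call requires, which all members passed, these shares were 37.7% and 13.1%. With library totals in place of TMM factors the split of all calls turned from 3314 higher and 1755 lower to 1705 higher and 3262 lower, and the same 4 members were called lower. The median log2 fold change was -0.26 over the 8 members and -0.16 over all genes tested. HSCs and MPP3 cells also carry separate runs of numbers in the sample titles, so cell type and the set in which libraries were made cannot be told apart.

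Socs2, a brake on growth hormone and other cytokine receptors, showed the largest difference. Its level in Y-WT HSCs was 63.2, 59.6, 45.1 and 44.2 CPM in replicates 1 to 4, and in Y-WT MPP3 cells 11.5, 6.24, 4.59 and 5.34 CPM. The groups were far apart, with the highest MPP3 library well under the lowest HSC library. Socs2 was 7.96-fold lower in MPP3 cells (log2 fold change -2.99, standard error 0.29, adjusted p = 0.000115 by edgeR's quasi-likelihood test). In Y-TTPΔARE cells the levels were 59.4, 51.2, 45.2 and 50.5 CPM in HSCs and 8.04, 8.48, 8.70 and 11.1 CPM in MPP3 cells. These groups did not overlap either, and Socs2 was 6.13-fold lower in MPP3 cells (log2 fold change -2.62, standard error 0.14, adjusted p = 2.36e-06).

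Cish, whose protein blocks the docking of STAT5 on activated receptors, was measured in Y-WT HSCs at 105, 68.1, 59.5 and 95.2 CPM. In Y-WT MPP3 cells it was at 39.0, 16.9, 16.4 and 29.2 CPM. All 4 MPP3 libraries lay under all 4 HSC libraries, although each group spanned a wide range. Cish was 3.34-fold lower (log2 fold change -1.74, 95% confidence interval -2.45 to -1.03, adjusted p = 0.00349). In Y-TTPΔARE cells Cish stood at 187, 165, 94.8 and 110.4 CPM in HSCs and at 40.4, 43.1, 22.4 and 19.5 CPM in MPP3 cells. Again the groups did not overlap, and replicates 1 and 2 were the highest of both cell types. The log2 fold change was -2.22 (standard error 0.35, adjusted p = 0.00159), or 4.66-fold lower.

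Socs1, which inhibits the JAK kinases directly, was at 23.1, 17.6, 17.1 and 18.6 CPM in Y-WT HSCs and at 15.6, 10.5, 8.87 and 9.85 CPM in Y-WT MPP3 cells. The groups did not overlap, but the highest MPP3 library came close to the lowest HSC library. Socs1 was 1.76-fold lower (log2 fold change -0.82, standard error 0.19, adjusted p = 0.0132), and without Y-WT MPP3 replicate 2 the adjusted p was 0.0513. In Y-TTPΔARE cells Socs1 was at 29.2, 26.4, 21.2 and 17.4 CPM in HSCs and at 17.1, 17.0, 10.03 and 18.1 CPM in MPP3 cells. HSC replicate 4 lay within the range of the MPP3 libraries, and the difference missed the limit (log2 fold change -0.70, standard error 0.23, adjusted p = 0.058). With the replicate number as a block, which paired these libraries, the log2 fold change was -0.70 and the adjusted p 0.0232, so that 3 members were called. Socs1 was also called by DESeq2, by edgeR's likelihood ratio test, with upper-quartile factors, without the filter, with all 24 libraries in 1 fit and with library totals (adjusted p from 0.0162 to 0.0374), and without HSC replicate 4 (adjusted p = 0.0443). It was not called with RLE factors or without any other single library.

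Pim1 was at 59.2, 68.1, 55.1 and 59.3 CPM in Y-WT HSCs and at 43.9, 37.1, 44.2 and 46.2 CPM in Y-WT MPP3 cells. The groups stood apart and both were narrow. Pim1 was 1.45-fold lower in MPP3 cells (log2 fold change -0.53, standard error 0.10, adjusted p = 0.00431), and with all 24 libraries in 1 fit the adjusted p was 0.0984. In Y-TTPΔARE cells Pim1 was at 66.3, 57.1, 57.0 and 62.2 CPM in HSCs and at 45.4, 36.9, 35.0 and 98.4 CPM in MPP3 cells. MPP3 replicate 4 lay over every HSC library and the other 3 lay under all of them, and Pim1 was not called (log2 fold change -0.32, standard error 0.25, adjusted p = 0.464). Without replicate 4 the log2 fold change was -0.65 (standard error 0.14, adjusted p = 0.0109).

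Of the 21478 genes tested in Y-TTPΔARE cells 16.3% were called and 7.22% called lower, and among the 13358 genes over the logCPM limit 26.2% and 11.6%. The called members were 2 of 8, Cish and Socs2, which is a share near that background, and both were lower. With library totals the split of all calls there went from 1949 higher and 1551 lower to 1331 higher and 2295 lower. The median log2 fold change in these cells was -0.28 over the members and -0.05 over all genes. The groups did not overlap for 5 members in WT cells, that is Cish, Socs1, Socs2 and Pim1 lower and Socs6 higher, and this held for 46.1% of all genes over the logCPM limit. It held for Cish and Socs2 in Y-TTPΔARE cells, against 37.6% of genes. Marker levels moved with cell type as well. The summed level of 9 T and NK cell markers was 43.7 to 72.3 CPM in Y-WT HSCs and 42.0 to 51.8 CPM in Y-WT MPP3 cells, that of 6 megakaryocyte markers 219 to 273 and 159 to 176 CPM, and that of 7 endothelial markers 249 to 488 and 154 to 186 CPM. In these lists 4 T and NK cell markers (Cd247, Klrb1c, Cd3g and Cd3e), 4 megakaryocyte and 6 endothelial markers were called lower and the T cell gene Lck higher. Cd3e was at 2.68 to 7.83 CPM in Y-WT HSCs and listed at 0 in 2 of the 4 Y-WT MPP3 libraries. In the other direction, 9 monocyte, macrophage and dendritic cell markers summed to 45.3 to 81.1 CPM in Y-WT HSCs and 135 to 410 CPM in Y-WT MPP3 cells, with 6 of the 9 called higher. The part of these markers in the differences of the members was not tested.

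**Figure D2:**
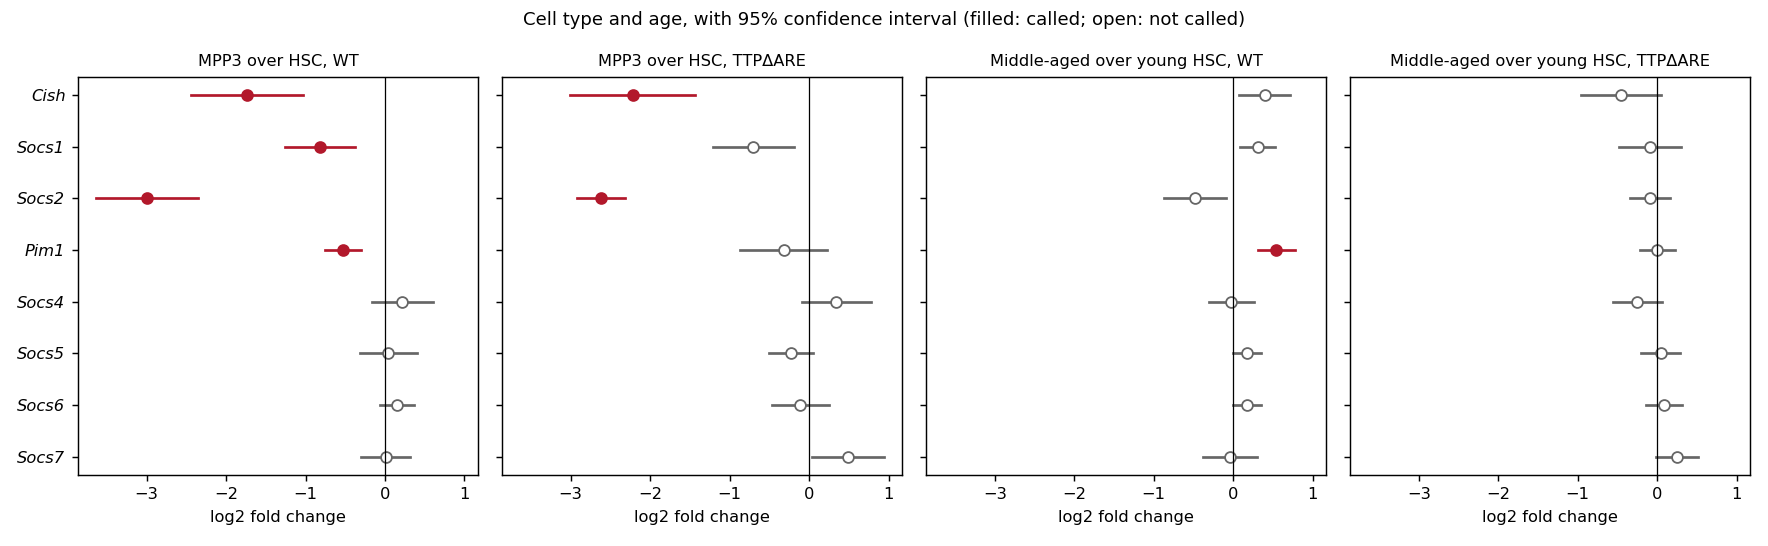
Log2 fold change (horizontal axis) of each of the 8 genes between cell types and between ages, by genotype, with its 95% confidence interval from edgeR's quasi-likelihood fit. Filled points were called and open points were not. Socs2 and Cish lie left of 0 in both genotypes for MPP3 over HSC, at -2.99 and -1.74 in WT cells, and Pim1 is the called gene for age in WT HSCs, at 0.54.

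The other 4 members did not follow this pattern, and none of them was called between cell types. Socs4, linked to signalling of the epidermal growth factor receptor, was at 15.9, 14.9, 9.99 and 13.3 CPM in Y-WT HSCs and at 15.2, 18.7, 17.0 and 14.1 CPM in Y-WT MPP3 cells. Socs5, also linked to that receptor, was at 82.1, 66.7, 67.5 and 86.5 CPM in Y-WT HSCs and at 93.9, 67.3, 68.0 and 91.6 CPM in Y-WT MPP3 cells. The groups overlapped over most of their range for Socs5, but for Socs4 only between 14.1 and 15.9 CPM.

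Socs6, which binds the stem cell factor receptor Kit, was at 58.3, 52.2, 57.2 and 54.0 CPM in Y-WT HSCs and at 64.0, 62.8, 60.8 and 65.5 CPM in Y-WT MPP3 cells. All MPP3 libraries lay over all HSC libraries on this scale, but they overlapped when the 8 libraries were scaled alone, and the log2 fold change was 0.15 (95% confidence interval -0.06 to 0.36, adjusted p = 0.282). Socs7 was at 8.59, 7.75, 8.73 and 10.9 CPM in Y-WT HSCs and at 10.1, 8.12, 10.04 and 9.10 CPM in Y-WT MPP3 cells. The WT log2 fold changes of Socs4, Socs5 and Socs7 were 0.22, 0.042 and 0.0096, and the intervals reached from -0.17 to 0.60, from -0.32 to 0.40 and from -0.30 to 0.32. With library totals as the scale the median of all genes over the logCPM limit moved from 0.12 to -0.10 in this comparison, and Socs5, Socs6 and Socs7 then took negative signs. In Y-TTPΔARE cells Socs7 had a log2 fold change of 0.49 (adjusted p = 0.138, but 0.0269 without MPP3 replicate 3 and 0.0217 with all 24 libraries in 1 fit), Socs4 of 0.34, Socs5 of -0.23 and Socs6 of -0.11.

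Whether more TTP altered the feedback genes was asked within each cell type and age. In young HSCs edgeR's quasi-likelihood test, its likelihood ratio test and DESeq2 each called 0 of the 8 members. By the quasi-likelihood test 1 member, Cish, had an unadjusted p under 0.05, as did 1799 of all genes tested. Of all 24381 genes tested 0.0246% were called, and of those over the logCPM limit 0.0435%. The median log2 fold change was 0.06 over the members and -0.07 over all genes. For 0 members did the groups stand apart, against 8.4% of genes over the logCPM limit.

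The Cish values were given above for both young HSC groups. Y-TTPΔARE replicates 1 and 2 lay far over every Y-WT library, replicate 4 lay just over them and replicate 3 lay within their range. The log2 fold change was 0.73 (95% confidence interval 0.19 to 1.28, unadjusted p = 0.0133, adjusted p = 0.452). With each library left out in turn it stayed between 0.57 and 0.95, and the adjusted p lay between 0.114 and 0.933 over all alternatives. The same 2 libraries held the most T and NK cell marker RNA, with 155.9 and 156.7 CPM over 9 markers against 69.7 and 87.9 CPM in replicates 3 and 4 and 43.7 to 72.3 CPM in Y-WT HSCs. Cd3e was at 25.6, 25.6, 8.41 and 11.7 CPM in Y-TTPΔARE replicates 1 to 4, whereas the NK cell gene Ncr1 did not exceed 0.61 CPM in any young HSC library. The markers of erythroid cells (45.3 to 92.9 against 16.1 to 22.4 CPM) and of monocytes, macrophages and dendritic cells (82.4 to 105.7 against 45.3 to 81.1 CPM) were also higher in the Y-TTPΔARE libraries, and 1 of these lists' genes, Hbb-bt, was called. The part of other cell types in the Cish values was not tested, nor was that of the olfactory and vomeronasal receptor sums given above.

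**Figure D3:**
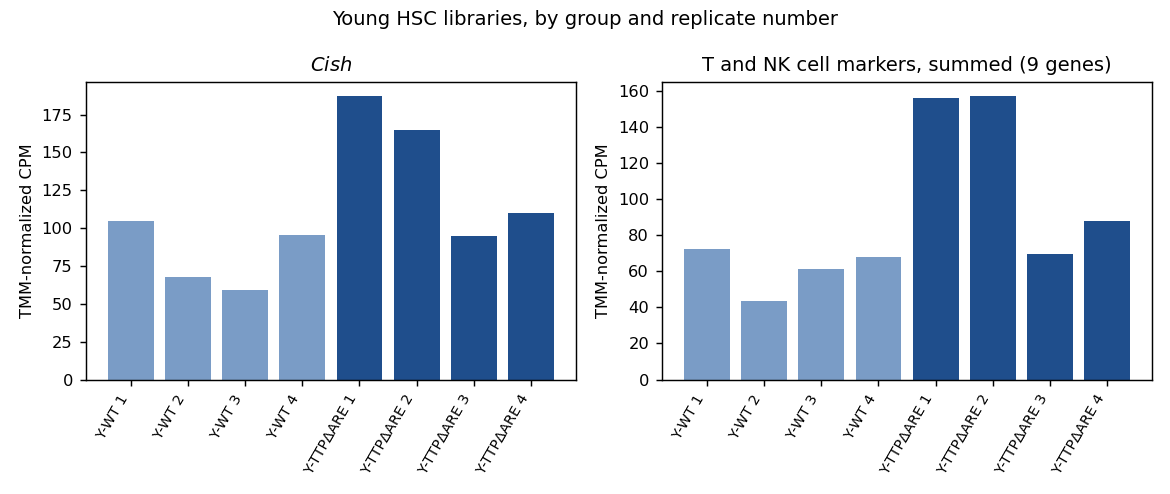
TMM-normalized CPM (vertical axis, from 0) of Cish and of 9 T and NK cell markers summed, in each young HSC library (horizontal axis, group and replicate number). Y-TTPΔARE replicates 1 and 2 are the highest in both panels, with 187 and 165 CPM for Cish and 155.9 and 156.7 CPM for the markers. Within Y-TTPΔARE HSCs these 2 libraries were also highest in B cell, mature neutrophil and monocyte, macrophage and dendritic cell markers, which are not drawn.

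Socs1, Socs5 and Socs6 were also highest in Y-TTPΔARE HSC replicates 1 and 2. These held 29.2 and 26.4 CPM for Socs1, 94.97 and 98.1 CPM for Socs5 and 59.8 and 64.0 CPM for Socs6. Within Y-TTPΔARE HSCs the same libraries were highest for Socs2 and Socs4 too, but not for Socs7 or Pim1. Socs5 stood at 75.2 and 78.9 CPM in the other 2 Y-TTPΔARE libraries, within the Y-WT range. The log2 fold changes were 0.26 for Socs1 (adjusted p = 0.717) and 0.16 for Socs5 (adjusted p = 0.722). For Pim1 the groups lay on top of each other, and the log2 fold change of -0.038 had an interval from -0.25 to 0.18. Those of Socs2, Socs4, Socs6 and Socs7 were -0.083, 0.11, 0.0036 and -0.089.

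**Figure D4:**
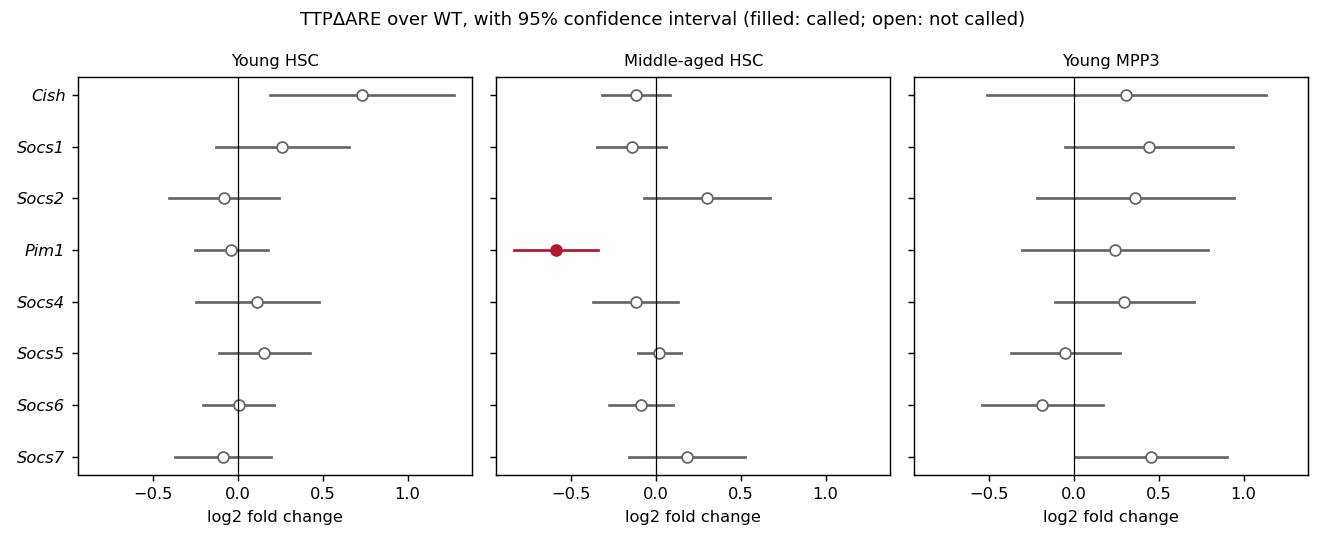
Log2 fold change of TTPΔARE over WT (horizontal axis) of each of the 8 genes in HSCs of both ages and in MPP3 cells, with its 95% confidence interval. Filled points were called and open points were not. The called gene is Pim1 in middle-aged HSCs, at -0.59.

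In middle-aged HSCs Pim1 fell and the 7 SOCS family members were not called. Pim1 was at 86.5, 77.5, 112, 85.9 and 81.7 CPM in M-WT and at 60.4, 56.5 and 65.3 CPM in M-TTPΔARE HSCs. Every M-TTPΔARE library lay under every M-WT library and within the range of the young HSCs, and M-WT replicate 3 stood over its group. Pim1 was 1.51-fold lower in M-TTPΔARE (log2 fold change -0.59, standard error 0.11, adjusted p = 0.0269). Without each M-TTPΔARE library in turn the adjusted p was 0.107, 0.114 and 0.0654, and with all 24 libraries in 1 fit it was 0.574 at a log2 fold change of -0.54. Of all 21136 genes tested 1.41% were called and 0.71% called lower (2.22% called of those over the logCPM limit), against 1 of the 8 members, and with library totals the split of all calls went from 148 higher and 150 lower to 212 higher and 125 lower. The groups did not overlap for Pim1 alone among the members, against 13.8% of genes over the logCPM limit. The median log2 fold change was -0.10 over the members and 0.01 over all genes.

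The sum of 6 megakaryocyte markers was lower in the same libraries, at 392 to 423 CPM in M-WT and 213 to 258 CPM in M-TTPΔARE HSCs. Of the 6, 2 (Itga2b and Itgb3) were called lower, with none at 0, and 4 were not called. The median log2 fold change over the 6 was -0.24. Of the other cells' markers, the endothelial gene Cldn5 was called lower and the granulocyte-monocyte progenitor gene Gfi1 higher. Itgb3 lay at 180 to 225 CPM in M-WT HSCs and at 68.2 to 110.6 CPM in M-TTPΔARE HSCs. The study also lists Itgb3 among genes higher in aged HSCs. The part of other cells in the Pim1 difference was not tested. An antisense gene, Gm26885, shares 14.52% of the exon bases of Pim1 and had between 306 and 800 counts. The strand setting of the counting was not given in the sources used here, so reads of that stretch cannot be assigned to one or the other. The same holds for Cish, of which Gm17041 shares 7.46% and Gm17040 shares 4.07%.

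Among the SOCS family members in middle-aged HSCs, Cish was at 104, 116, 105, 102 and 114 CPM in M-WT and at 86.8, 115 and 106 CPM in M-TTPΔARE. Both groups were narrow and overlapped, and the log2 fold change of -0.12 had an interval from -0.32 to 0.08. Socs2 was at 25.3, 35.6, 51.9, 36.4 and 42.2 CPM in M-WT and at 49.96, 48.1 and 48.1 CPM in M-TTPΔARE. The 3 M-TTPΔARE libraries were close together and were exceeded only by M-WT replicate 3, and the log2 fold change was 0.30 (interval -0.07 to 0.67, adjusted p = 0.406). Socs1 was at 20.5, 23.0, 26.9, 25.9 and 23.0 CPM in M-WT and at 21.4, 23.0 and 22.4 CPM in M-TTPΔARE, with a log2 fold change of -0.14. The log2 fold changes of the remaining members were between -0.12 for Socs4 and 0.18 for Socs7.

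In young MPP3 cells 0 of the 8 members were called between genotypes by edgeR's quasi-likelihood and likelihood ratio tests and by DESeq2. By the quasi-likelihood test 1 member, Socs7, had an unadjusted p under 0.05, as did 2296 of all genes tested. Of all 19023 genes tested 1.71% were called, and of those over the logCPM limit 2.54%. The groups stood apart for 0 members, against 12.3% of genes over the logCPM limit, and the median log2 fold change was 0.30 over the members and 0.04 over all genes. Y-TTPΔARE replicate 4 carried several of the highest values. Pim1 was at 98.4 CPM there and at 35.0 to 45.4 CPM in the other 3 libraries, Socs4 at 32.5 against 15.6 to 18.8 CPM, and Socs7 at 19.7 against 8.41 to 13.6 CPM. With this library the log2 fold changes were 0.24 for Pim1 (adjusted p = 0.73), 0.30 for Socs4 (adjusted p = 0.549) and 0.45 for Socs7 (adjusted p = 0.408). Without it they were -0.11, 0.09 and 0.29, and 0 members were called.

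Socs1 had a log2 fold change of 0.44 in MPP3 cells (standard error 0.22, adjusted p = 0.473), with 3 of the 4 Y-TTPΔARE libraries over every Y-WT library and replicate 3 within their range. Cish had one of 0.31 with a wide interval, from -0.52 to 1.13, and Socs2 one of 0.36 (interval -0.22 to 0.94). Socs5 (-0.052) and Socs6 (-0.19) had negative values. Other cells' markers differed between these groups. The summed level of 9 monocyte, macrophage and dendritic cell markers was 135 to 410 CPM in Y-WT and 462 to 801 CPM in Y-TTPΔARE MPP3 cells, with 4 of the 9 (Itgax, Ccr2, Cd68 and Adgre1) called higher. T and NK cell markers summed to 42.0 to 51.8 and 74.5 to 90.3 CPM (Lck called higher), and erythroid markers to 13.6 to 31.9 and 59.2 to 127.3 CPM (Hbb-bt and Hbb-bs called higher). Megakaryocyte markers were at 159 to 176 and 103 to 108 CPM (Itga2b called lower) and endothelial markers at 154 to 186 and 118 to 151 CPM (Tek called lower). All 5 of these sums separated the groups. The median log2 fold change over the 6 endothelial markers tested was 0.27, however, against 0.04 over all genes. The sum of 8 granulocyte-monocyte progenitor markers overlapped (542 to 1723 and 1207 to 2526 CPM, Elane called higher). So did those of B cell (49.8 to 137 and 70.8 to 170 CPM, Cd22 called higher) and mature neutrophil markers (7.62 to 89.9 and 15.8 to 142 CPM). The part of all these markers in the members' values was not tested.

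Between ages in WT HSCs, Pim1 rose and the other 7 members were not called. All 5 M-WT libraries lay over all 4 Y-WT libraries, and Pim1 was 1.46-fold higher in M-WT (log2 fold change 0.54, standard error 0.10, adjusted p = 0.00589). With all 24 libraries in 1 fit the adjusted p was 0.081. Of all 22280 genes tested 12.1% were called and 8.38% called higher (19.7% and 13.7% of those over the logCPM limit), against 1 of the 8 members, and the median log2 fold change was 0.17 over the members and -0.04 over all genes. With library totals the split of all calls went from 1868 higher and 823 lower to 1105 higher and 1180 lower. The groups did not overlap for Pim1 alone among the members, against 21.4% of genes over the logCPM limit. The M-WT libraries are those of the genotype comparison in middle-aged HSCs, so both Pim1 differences rest on the same 5 values. As with the cell types, each age has its own run of numbers in the titles, so age and the set in which libraries were made cannot be told apart.

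Socs1, Cish and Socs2 came near the limit between ages in WT HSCs. The log2 fold change was 0.31 for Socs1 (standard error 0.10, adjusted p = 0.0504), 0.40 for Cish (standard error 0.14, adjusted p = 0.0728) and -0.48 for Socs2 (standard error 0.18, adjusted p = 0.0768). In each of the 3 genes the groups overlapped through a single library. DESeq2 called all 3, with adjusted p of 0.0417, 0.0279 and 0.0226, and without Y-WT HSC replicate 1, the highest Y-WT library for Socs1 and Cish, edgeR's test called Cish (0.56, adjusted p = 0.00725) and Socs1 (0.44, adjusted p = 0.00493). Without the filter on low counts it called Cish and Socs1 (adjusted p of 0.0336 and 0.0467), and with upper-quartile factors Socs2 (0.0470). Without M-WT replicate 1 it called Socs1, and without M-WT replicate 3 it called Socs2, beside Pim1 in both cases. The fit without Y-WT replicate 1 kept the Y-WT libraries with 596 to 979 CPM of olfactory and vomeronasal receptor genes. In M-WT HSCs that sum was 39.2 to 209 CPM, and its part in the calls was not tested. Megakaryocyte markers summed to 392 to 423 CPM in M-WT and 219 to 273 CPM in Y-WT HSCs, with 1 of the 6 called higher (Itgb3) and 2 called lower (Ppbp and Pf4). Among T and NK cell markers 4 were called lower in M-WT (Cd3e, Cd3g, Lck and Cd4) and 1 higher (Klrb1c). Monocyte, macrophage and dendritic cell markers (2 of 9) and endothelial markers (3 of 7) were called lower, and 3 erythroid markers higher. Of 10 HSC markers 7 were called higher in M-WT, and their sum was 3069 to 3674 CPM in M-WT and 2555 to 2772 CPM in Y-WT HSCs. The part of these cells was not tested.

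In TTPΔARE HSCs 0 of the 8 members were called between ages by edgeR's quasi-likelihood test or DESeq2. By the quasi-likelihood test 0 members had an unadjusted p under 0.05, against 4996 of all genes tested. Of 23336 genes tested 8.22% were called, and of those over the logCPM limit 14.2%. Pim1 was at 60.4, 56.5 and 65.3 CPM in M-TTPΔARE and at 66.3, 57.1, 57.0 and 62.2 CPM in Y-TTPΔARE, and the groups coincided, with a log2 fold change of -0.00058 (interval -0.22 to 0.22). That of Cish was -0.45 (interval -0.95 to 0.051, adjusted p = 0.298). Socs7, the least abundant member, was at 10.6, 10.8 and 9.61 CPM in M-TTPΔARE and at 9.11, 8.33, 8.93 and 8.45 CPM in Y-TTPΔARE. These groups did not overlap, as was the case for 31.8% of genes over the logCPM limit, and the log2 fold change was 0.24 (adjusted p = 0.278).

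An interaction over the 16 HSC libraries set the genotype effect at one age against that at the other. By edgeR's quasi-likelihood test 0 members were called, against 0.0213% of 28189 genes (0.0439% of those over the logCPM limit). By the same test 3 members had an unadjusted p under 0.05, as did 4238 of the 28189 genes. The effect in middle-aged minus young HSCs was -0.60 on the log2 scale for Pim1 (standard error 0.16, unadjusted p = 0.00177, adjusted p = 0.225), -0.90 for Cish (standard error 0.30, unadjusted p = 0.00747, adjusted p = 0.269) and -0.45 for Socs1 (standard error 0.21, adjusted p = 0.331). DESeq2 called Pim1 (-0.55, adjusted p = 0.0446). For the effect in MPP3 cells minus HSCs 0 members were called by either tool, against 0.429% of 26337 genes (0.839% of those over the limit). By edgeR's quasi-likelihood test 0 members had an unadjusted p under 0.05, against 2817 of the 26337 genes. The interval of that difference was wide for Cish, from -1.56 to 0.50, which sets what could be detected at this spread.

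The position of the groups was not the same for each gene. Cish had its highest mean in Y-TTPΔARE HSCs (139 ± 43.7 CPM, SD, n = 4), followed by M-WT (108 ± 6.596, n = 5), M-TTPΔARE (103 ± 14.5, n = 3) and Y-WT HSCs (81.9 ± 21.6, n = 4), and neighbours in this order overlapped. A gap came before the MPP3 groups (31.4 ± 12.1 in Y-TTPΔARE and 25.4 ± 10.9 in Y-WT, n = 4 each), which overlapped each other. Socs2 had the same gap, between M-WT HSCs (38.3 ± 9.76 CPM) and Y-TTPΔARE MPP3 cells (9.09 ± 1.38 CPM). Pim1 stood at 88.6 ± 13.3 CPM in M-WT HSCs and at 60.8 ± 4.40, 60.6 ± 4.49 and 60.4 ± 5.45 CPM in the other 3 HSC groups, which did not differ beyond their spread. For Socs5 the order of means ran from 89.97 to 75.7 CPM, and for Socs6 from 63.3 to 55.4 CPM, with HSC and MPP3 groups interleaved.

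Over the 24 libraries Pearson's r of log2 CPM was 0.90 between Cish and Socs2, 0.88 between Cish and Socs1 and 0.83 between Socs1 and Socs2. It was 0.53 between Cish and Pim1 and -0.51 between Cish and Socs4. These values describe libraries that share cell type and age groups, scale and depth, and no test was made. By the same measure over 11717 genes, those most like Cish were Foxo1 (r = 0.963), Abcg3 (0.962) and Rnf125 (0.96). Those most like Pim1 were Tal1 (0.881), Pcgf2 (0.873) and Pdlim1 (0.869), and for Socs2 they were Clip3 (0.969), Tceal3 (0.964) and Kazald1 (0.961). Socs1 was nearest to Prmt2 (0.933), Rhof and Dnaja4, and Socs4 to Timm9 (0.936), Eif2s2 and Ahsa1. The nearest gene was less alike for Socs7 (Uckl1, 0.835), Socs6 (Tmem260, 0.822) and Socs5 (Bcam, 0.786). By Spearman's rho the nearest gene was the same for 2 members, Cish and Pim1.

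Upstream of the members, the receptors that use STAT5 differed between cell types in both directions. Over the pathway lists without the members 18 of 60 genes were called in WT cells, between the 22.2% of all genes and the 37.7% of those over the logCPM limit given above. Of 15 receptor genes, 4 were called higher and 4 lower in Y-WT MPP3 cells than in Y-WT HSCs. The 3 with the smallest p were Flt3 (log2 fold change 3.31, standard error 0.14), Ghr, the growth hormone receptor (-2.42, standard error 0.22) and Il2rb, a chain of the interleukin 2 and 15 receptors (-3.95, standard error 0.44). Of 10 JAK and STAT genes, Jak3 (0.43), Tyk2 (0.50) and Stat5b (0.48, adjusted p = 0.00409) were called higher, while Stat5a (0.09, adjusted p = 0.521) and Jak2 (-0.13, adjusted p = 0.394) were not called. Of 12 other STAT5 target genes 4 were called higher and 3 lower, with the smallest p for Gadd45g (-3.01), Myc (0.76) and Osm (1.02), the last of which encodes the cytokine oncostatin M.

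Of the 14 other brakes on JAK-STAT signalling 0 were called between WT cell types, and Socs3 had an adjusted p of 0.821 at a log2 fold change of -0.10 (standard error 0.32). Of the 7 subunits of SOCS-box ubiquitin ligases 0 were called. At an unadjusted p under 0.05 there were 3 in each of these lists, and 8183 of all 22816 genes tested. Neither Pim2 (-0.49, adjusted p = 0.237) nor Pim3 (-0.33, adjusted p = 0.139) was called. In Y-TTPΔARE cells 18 of these 60 genes were called, against 16.3% of all genes tested and 26.2% of those over the logCPM limit. Of the receptors 5 were higher and 3 lower, with the smallest p for Flt3 (3.403), Epor (-2.64) and Csf3r (1.14), and of the other STAT5 targets 4 were higher and 3 lower, with the smallest p for Gadd45g (-2.03), Bcl2l1 (-1.02) and Cdkn1a (1.41). The remaining calls were Stat4 (-0.55) lower, Ptpn1 (0.41) higher and Pim2 (-0.80, standard error 0.15, adjusted p = 0.00355) lower.

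**Figure D5:**
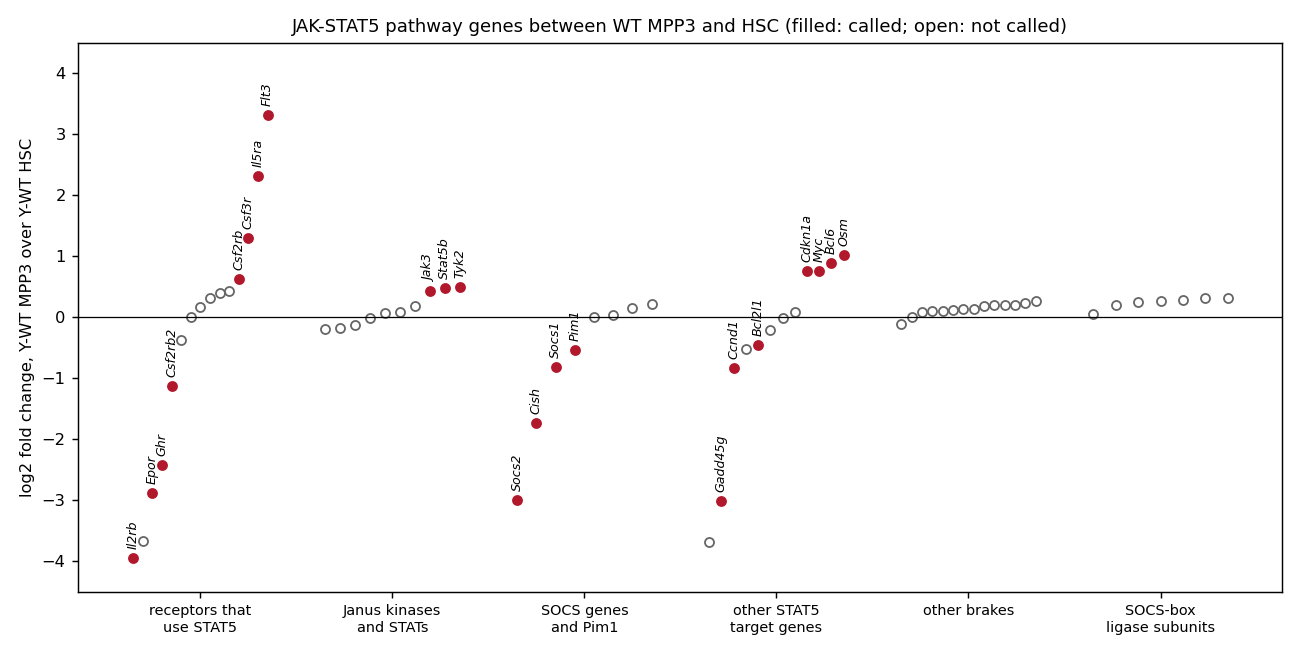
Log2 fold change of Y-WT MPP3 cells over Y-WT HSCs (vertical axis) for genes of the JAK-STAT5 pathway, 1 point per gene, sorted within each list (horizontal axis). Filled, named points were called. Receptors and other targets spread in both directions, and the called SOCS genes and Pim1 all lie under 0. The 14 other brakes (median 0.13) and 7 ligase subunits (median 0.27) hold no called gene. The median over all genes tested was -0.16.

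By genotype the pathway lists held 0 called genes of 60 in young HSCs, 4 in middle-aged HSCs and 3 in young MPP3 cells. Among all genes over the logCPM limit 0.0435%, 2.22% and 2.54% were called in these comparisons. In young HSCs 9 of these 60 genes had an unadjusted p under 0.05, as did 1799 of all 24381 genes tested. Socs3, which the paper reports as lower in HSCs of both ages, was not called in young HSCs. In middle-aged HSCs Jak3 (-0.44, adjusted p = 0.0102), Csf3r (-0.82, adjusted p = 0.00838), Socs3 (-1.83, standard error 0.33, adjusted p = 0.0222) and Pim2 (-1.05, standard error 0.19, adjusted p = 0.0207) were called lower in M-TTPΔARE, beside Pim1. In young MPP3 cells Il2rb (3.10, adjusted p = 0.0401), Csf2ra (0.85, adjusted p = 0.0111) and Cdkn1a (1.06, adjusted p = 0.0417) were called higher in Y-TTPΔARE. Pim3, Jak2, Stat5a and Stat5b were called in none of the genotype comparisons.

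Between WT ages Socs3 (1.66, standard error 0.30, adjusted p = 0.00437) and Pim2 (0.90, adjusted p = 0.0162) were called higher in M-WT HSCs, as were Jak3 (0.56), Stat3 (0.57) and Stat6 (0.32). Stat5b had a log2 fold change of 0.26 with an adjusted p of 0.0147 but missed the fold limit, and Stat5a (0.20, adjusted p = 0.11) was not called. Of the 15 receptors 3 were called higher and 3 lower, with the smallest p for Flt3 (-1.16), Csf2rb (-0.89) and Il2rb (-3.09), and 3 of 12 other STAT5 targets, Bcl2l1 (0.28), Bcl2 (0.32) and Gadd45g (0.96), were called higher. In all 14 of the 60 genes were called, against 12.1% of all genes tested and 19.7% of those over the logCPM limit. In TTPΔARE HSCs 11 of the 60 genes were called between ages, against 8.22% and 14.2%. Of the receptors 3 were higher and 3 lower, with the smallest p for Flt3 (-1.04), Ghr (1.02) and Il2rb (-3.54). Jak3 (0.34), Stat3 (0.37), Gadd45g (0.90) and Ccnd1 (0.65) were called higher, Socs3 (0.58, adjusted p = 0.114) was not, and the ligase subunit Rbx1 (-0.30) was called lower.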

How the data were processed

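Bulk mRNA-seq was available for 24 libraries in 6 groups. The deposited values are raw counts per gene symbol, made by the authors by trimming with Trim Galore! and Cutadapt, alignment to mm10 with STAR, with an index built on GENCODE M22, and counting with featureCounts (the submitters' processing notes name cutadapt, STAR, featureCounts and mm10). Strand and multimapping settings were not given in the sources used here, and the paper and the labels name different SMARTer kits. Groups and replicate numbers came from the titles. No library pair held identical values, and the chi-square per gene between replicates was 18.2 to 246.6.

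Genes were filtered with filterByExpr (minimum count 10, total 15), scaled with TMM and tested with edgeR 4.0.16 (quasi-likelihood test, R 4.3.3, limma 3.58.1) on the groups of each comparison, or on 16 libraries for an interaction, with Benjamini-Hochberg adjustment over all genes tested. Following the limits of the study, a called gene had an average logCPM over 1.5, a fold change over 1.2 and an adjusted p under 0.05. The calls of the paper were not reproduced in young HSCs by genotype. It reports far more genes there than the 6 of the quasi-likelihood test, the 146 of the likelihood ratio test or the 304 of DESeq2. Most of the paper's calls in young HSCs were lower. Here the likelihood ratio test gave 50 higher and 96 lower, and DESeq2 gave 165 higher and 139 lower. The paper's numbers for middle-aged HSCs and MPP3 cells were not matched either. They lie over the 298 and 326 genes of the quasi-likelihood test and under the 835 and 766 of DESeq2. The cause of these gaps was not tested. Standard errors are the size of the log2 fold change over the square root of F, and intervals are 95%. Printed CPM and RPKM were scaled over all 24 libraries, and correlations used log2 CPM with a prior count of 2. RPKM used all annotated exon bases of each gene in GENCODE M21. DESeq2 1.42.0 was an alternative. The code was tested on simulated data.

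The members and gene lists were chosen with earlier results of these data known. Named genes are all members, Socs3, Stat5a, Stat5b, Jak2, Pim2 and Pim3, and of the other pathway lists those called (the 3 with the smallest p where over 5 were called). Some genes of the pathway lists are not reported here, and the counts leave them out. Same-numbered Y-TTPΔARE MPP3 and HSC libraries deviated together in 4 of 4 pairs (r 0.144 to 0.234), so their blocked value is given where it changed a call. The other comparisons did not pass this check.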

Additional observations from a re-analysis of the deposited data

Results flagged for a closer look

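Each member was examined for a library far from the rest of its group, except in M-TTPΔARE HSCs, whose 3 libraries were not examined. Such a library had a gap to the nearest library that exceeded Dixon's 95% limit for the range of the group. Of 40 combinations of gene and group 4 exceeded it, and chance gives about 1 in 20. In Y-TTPΔARE MPP3 cells, Pim1 was at 98.4 CPM in replicate 4 and at 35.0 to 45.4 CPM in the others. Socs5 was at 84.3 CPM in replicate 4 of this group and at 77.6 to 77.9 CPM in the others. The raw Socs5 count of replicate 4 was the lowest of the group (1970, against 2159 to 2606). It stood highest only after scaling with that library's TMM factor of 0.731. In the same group Socs1 was at 10.03 CPM in replicate 3 and at 17.0 to 18.1 CPM in the others. In M-WT HSCs Pim1 was at 112 CPM in replicate 3 and at 77.5 to 86.5 CPM in the others, and without that library Pim1 had a log2 fold change between genotypes of -0.50 (adjusted p = 0.0179 by edgeR's quasi-likelihood test). Why these libraries stood apart was not tested.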

How the results depend on the processing

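The count of members called kept within 1.5 times its value except as follows. For M-TTPΔARE against M-WT HSCs it went from 1 to 0 with all 24 libraries in 1 fit and lay between 0 and 1 with a library left out. For Y-TTPΔARE MPP3 cells against HSCs it went from 2 to 4 with all 24 libraries in 1 fit. For M-WT against Y-WT HSCs it went from 1 to 4 with DESeq2, 3 without the filter, 2 with upper-quartile factors and 0 with all 24 libraries, and lay between 1 and 3 with a library left out. It went from 0 to 1 for age in TTPΔARE HSCs without the filter (Cish, -0.43, adjusted p = 0.00282) and for the interaction with age by DESeq2 (Pim1). The replicate number as a block gave 0, 1 and 0 members for genotype in young HSCs, middle-aged HSCs and MPP3 cells, 4 and 3 for cell type in WT and TTPΔARE, 1 and 0 for age, and 0 for both interactions, and it changed no other call of a member. Over all genes the block moved the calls from 298 to 108 for genotype in middle-aged HSCs, from 2691 to 1580 for age in WT and from 1918 to 914 for age in TTPΔARE, although these libraries share only a number (r of pairs -0.151 to 0.213 outside the paired comparison). DESeq2 called 304, 835, 766, 157 and 331 genes where edgeR's quasi-likelihood test called 6, 298, 326, 6 and 113, for the 3 genotype comparisons and the interactions with age and cell type. Upper-quartile factors gave 2048 higher and 2950 lower calls between WT cell types and 1103 higher and 1243 lower between WT ages.
Signs turned for log2 fold changes near 0 that were not called. In young HSCs by genotype Socs6 was -0.032 with upper-quartile factors, -0.041 with library totals (a scale chosen after the scaling factors were seen) and -0.0018 with the block, and Pim1 was 0.035 without the filter and 0.0036 with all 24 libraries. Between WT cell types Socs5, Socs6 and Socs7 were -0.13, -0.028 and -0.17 with upper-quartile factors and -0.17, -0.066 and -0.21 with library totals, Socs5 and Socs7 were -0.0021 and -0.040 with DESeq2 and -0.0020 and -0.040 with RLE factors, and Socs7 was -0.024 without the filter. Between WT ages Socs4 was 0.060 and Socs7 0.049 without the filter, and Socs4 was 0.034 with the block. Between TTPΔARE ages Pim1 was 0.013 without the filter, 0.0027 with all 24 libraries and 0.0027 with the block. With a library left out, values of both signs were found by genotype in young HSCs for Socs2 (-0.14 to 0.089), Socs6 (-0.018 to 0.10), Socs7 (-0.15 to 0.061) and Pim1 (-0.058 to 0.047), in middle-aged HSCs for Socs5 (-0.0057 to 0.044) and in MPP3 cells for Socs5 (-0.14 to 0.063) and Pim1 (-0.11 to 0.37). The same held between cell types for Socs5 (-0.035 to 0.16) and Socs7 (-0.051 to 0.12) in WT and Socs6 (-0.23 to 0.015) in TTPΔARE, and between ages for Socs4 (-0.13 to 0.089) and Socs7 (-0.16 to 0.054) in WT and Socs1 (-0.22 to 0.059), Socs2 (-0.16 to 0.012), Socs5 (-0.031 to 0.12) and Pim1 (-0.059 to 0.071) in TTPΔARE. It held in the interaction with cell type for Socs4 (-0.12 to 0.33) and Pim1 (-0.18 to 0.49). Of the members' fold changes with no library left out 607 kept direction and call, 22 turned sign, 16 gained a call and 3 lost one, and with 1 left out the numbers were 657, 36, 7 and 4. The cause was not tested. Groups of 3 to 5 libraries limit what could be detected, and the lowest count behind a member's level was 137.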
